A study of Homo sapiens with 8 samples.

Results

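TRPM1 and 8 further genes, TRIM63, AMBN, FRMD4B, LRRC39, CDK15, PRDM7, KCNAB2 and SERPINF1, are described here in COLO829 cells in which MITF was knocked down and BRAF was inhibited. The 9 genes, of 18404 measured, were selected on their array values because they were high in scrambled-hairpin cells given PLX4032 and much lower in MITF-hairpin cells given PLX4032. Levels on those 4 arrays are therefore a description with no test, and so is every difference that includes them. The comparison of MITF-hairpin with scrambled cells in DMSO compares none of those arrays and was tested, with a spread estimated over all 8 arrays. All 9 genes were found, each with 1 probe set that carried no other symbol.

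RNA was measured on 8 Affymetrix arrays, 2 per group (A and B), from COLO829, an established human melanoma cell line with an activating BRAF mutation. The 4 groups were cells with a hairpin against MITF (pGIPZ vector) and PLX4032, cells with a scrambled hairpin and PLX4032, MITF-hairpin cells with DMSO, and scrambled cells with DMSO. All had been through 2 days of puromycin before 24 h of 1 µM PLX4032, an inhibitor of mutant BRAF also called vemurafenib, or of its solvent DMSO. The labels name 1 hairpin against MITF and leave unsaid whether arrays A and B came from separate cultures. The p-values therefore rest on the difference between A and B within groups, which could be technical alone.

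MITF is the transcription factor that sets the melanocyte lineage. It binds E-box motifs in the promoters of genes for pigment synthesis, melanosome transport and survival, and in BRAF-mutant melanoma the ERK pathway bears on both its activity and its stability. TRPM1 (melastatin), a cation channel of the TRP family that retinal ON bipolar cells also use, is a long-known MITF target in melanocytes, and an intron of the gene carries the microRNA miR-211. The other 8 genes have varied products: a muscle ubiquitin ligase, an enamel matrix protein, a scaffold, a sarcomere protein, a kinase, a histone methyltransferase, a channel subunit and a secreted serpin.

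Promoter sequence was at hand for 8 of the 9 genes, in 14 windows of 300 bases that run from 250 before to 50 after an annotated start site (RefSeq, GRCh38.p14). The E-box letters CATGTG, read on both strands, stood in 6 of the 14 windows and in 4 of the 8 genes, against 11.1% of all 35116 windows and 13.4% of the 27305 genes with a window. The longer form TCATGTG, which contains CATGTG, stood in 3 of the 8 genes, against 3.59% of genes, and the palindrome CACGTG in 1 of the 8, against 8.77% of genes. The 5 windows printed next are those of genes that hold one of these motifs, 1 per gene, with the motif in capitals, 5′ to 3′ on the gene's strand. They show how near to the start sites the letters lie; a match in letters is not a measured binding site.
TRPM1 (chr15:31101676-31101975, minus strand): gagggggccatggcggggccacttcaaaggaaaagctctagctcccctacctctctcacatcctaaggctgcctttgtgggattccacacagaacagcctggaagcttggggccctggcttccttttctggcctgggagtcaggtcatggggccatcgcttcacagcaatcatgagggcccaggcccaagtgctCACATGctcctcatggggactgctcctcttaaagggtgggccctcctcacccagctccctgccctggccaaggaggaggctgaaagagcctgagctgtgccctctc
TRIM63 (chr1:26067581-26067880, minus strand): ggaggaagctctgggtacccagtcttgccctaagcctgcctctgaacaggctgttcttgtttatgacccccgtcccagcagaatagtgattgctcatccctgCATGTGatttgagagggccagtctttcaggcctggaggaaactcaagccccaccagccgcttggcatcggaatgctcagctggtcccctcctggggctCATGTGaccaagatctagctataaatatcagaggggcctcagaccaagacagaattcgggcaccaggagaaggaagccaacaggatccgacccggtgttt
LRRC39 (chr1:100178207-100178506, minus strand): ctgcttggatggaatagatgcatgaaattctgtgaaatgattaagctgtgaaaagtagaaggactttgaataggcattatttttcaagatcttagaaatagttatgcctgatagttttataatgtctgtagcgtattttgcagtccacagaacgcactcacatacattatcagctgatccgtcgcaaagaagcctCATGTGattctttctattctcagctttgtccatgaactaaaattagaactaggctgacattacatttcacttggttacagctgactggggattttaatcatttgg
CDK15 (chr2:201806329-201806628, plus strand): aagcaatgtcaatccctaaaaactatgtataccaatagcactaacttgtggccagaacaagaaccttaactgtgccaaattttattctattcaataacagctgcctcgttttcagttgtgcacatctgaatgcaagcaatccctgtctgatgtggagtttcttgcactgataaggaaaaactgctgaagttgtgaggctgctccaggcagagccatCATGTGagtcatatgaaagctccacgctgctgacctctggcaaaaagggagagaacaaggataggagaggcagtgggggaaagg
KCNAB2 (chr1:6034438-6034737, plus strand): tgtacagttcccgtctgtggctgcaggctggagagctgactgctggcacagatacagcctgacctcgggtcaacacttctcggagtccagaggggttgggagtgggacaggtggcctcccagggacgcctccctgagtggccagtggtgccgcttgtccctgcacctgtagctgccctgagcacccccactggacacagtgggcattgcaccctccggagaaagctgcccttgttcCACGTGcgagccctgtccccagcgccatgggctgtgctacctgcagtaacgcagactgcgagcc
Counted from the start site, the motif began at -56 in TRPM1, where it reads CACATG on the gene's strand, at -148 and -50 in TRIM63, at -55 in LRRC39, at -34 in CDK15 and at -14 in KCNAB2. A second TRPM1 window (chr15:31161111-31161410, minus strand) held the same letters at -8. The CDK15 match falls in 2 overlapping windows and is 1 site. No window of AMBN, FRMD4B or PRDM7 held any of the 3 motifs.

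MITF itself was checked first. Its log2 level was 10.07 and 10.08 in MITF-hairpin cells given PLX4032 and 10.88 and 10.80 in scrambled cells given PLX4032. In DMSO it was 9.57 and 9.47 in MITF-hairpin cells and 10.44 and 10.46 in scrambled cells. The hairpin lowered MITF 1.70-fold under PLX4032 (log2 change -0.76 ± 0.08 SE, adjusted p = 3.02e-05) and 1.91-fold in DMSO (-0.93 ± 0.08, adjusted p = 8.28e-06, limma, n = 2 arrays per group). With PLX4032 and the scrambled hairpin, MITF rose by 0.39 (adjusted p = 0.00319, limma).

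TRPM1 was high in 1 group. Its log2 level was 5.43 and 5.21 in MITF-hairpin cells given PLX4032, 8.78 and 8.71 in scrambled cells given PLX4032, 5.05 and 4.89 in MITF-hairpin cells in DMSO, and 5.42 and 5.32 in scrambled cells in DMSO. The scrambled PLX4032 arrays stood more than 3 log2 units above all others, the hairpin PLX4032 and scrambled DMSO arrays overlapped, and the hairpin DMSO arrays were lowest. Under PLX4032 the level was 10.8-fold lower with the hairpin (-3.43 ± 0.099). PLX4032 went with a level 10.4-fold higher in scrambled cells (3.38 ± 0.099) and 1.27-fold higher in hairpin cells (0.35 ± 0.099). In DMSO, where the test applies, TRPM1 fell 1.32-fold on knockdown (-0.40 ± 0.099, adjusted p = 0.0108, limma). That call was lost without MITF-hairpin DMSO array B (adjusted p = 0.107) or without scrambled DMSO array A (adjusted p = 0.0504). In RNA from whole cultures, fewer cells of a kind and less RNA per cell cannot be told apart.

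**Figure D1:**
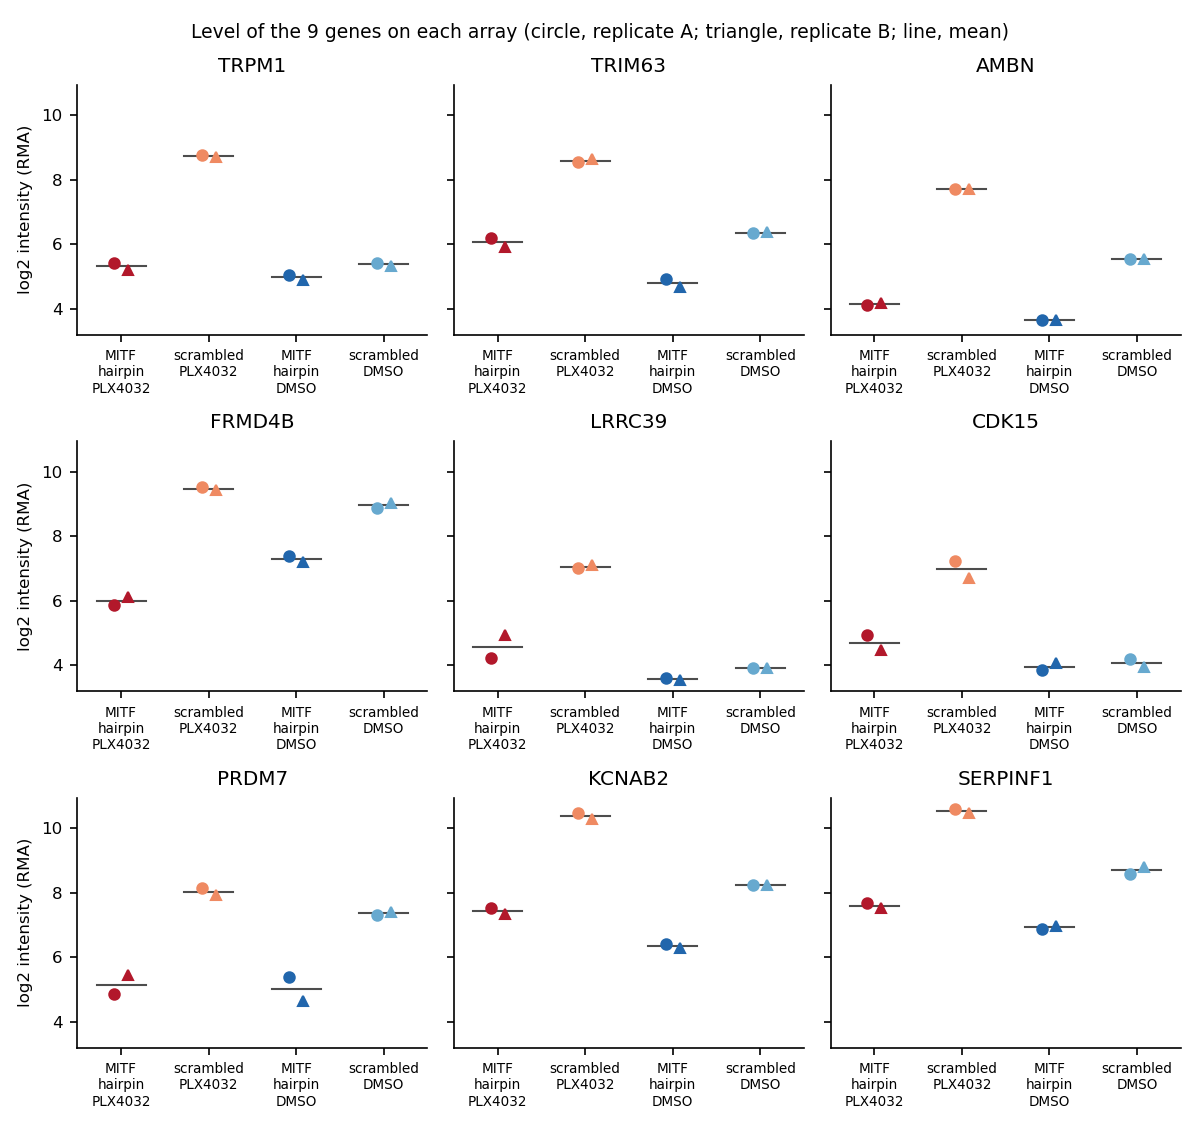
Log2 intensity (vertical axis) of the 9 genes on each of the 8 arrays, with a panel per gene, a circle for array A, a triangle for array B and a line at the group mean; heights can be compared within a panel, not between probe sets. In every panel both scrambled PLX4032 arrays are highest, from 8.71 to 8.78 for TRPM1, which is how the genes were selected, while the order of the other 3 groups differs between genes.

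LRRC39 and CDK15 had, like TRPM1, low levels in all groups but scrambled cells given PLX4032. LRRC39 encodes a leucine-rich repeat protein of the sarcomere M-band. Its log2 level was 4.23 and 4.92 in MITF-hairpin cells given PLX4032, 7.02 and 7.10 in scrambled cells given PLX4032, 3.60 and 3.54 in MITF-hairpin cells in DMSO, and 3.90 and 3.90 in scrambled cells in DMSO. No groups overlapped, but arrays A and B of hairpin cells given PLX4032 lay 0.69 apart, the widest gap among the 9 genes in that group. PLX4032 went with an 8.93-fold higher level in scrambled cells and a 2.00-fold higher level in hairpin cells. CDK15, a member of the cyclin-dependent kinase family, had log2 levels of 4.92 and 4.46 in MITF-hairpin cells given PLX4032, 7.22 and 6.71 in scrambled cells given PLX4032, 3.85 and 4.05 in MITF-hairpin cells in DMSO, and 4.18 and 3.94 in scrambled cells in DMSO. The DMSO groups overlapped, and the scrambled PLX4032 arrays lay 0.51 apart. PLX4032 went with a 7.52-fold higher CDK15 level in scrambled cells and a 1.68-fold higher level in hairpin cells. The log2 rise in hairpin cells was 31.8% of that in scrambled cells for LRRC39, 25.7% for CDK15 and 10.3% for TRPM1.

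In DMSO, the knockdown test was not passed by LRRC39 (-0.33 ± 0.17, adjusted p = 0.152, limma) or CDK15 (-0.11 ± 0.18, adjusted p = 0.669, limma). The spread behind these SEs is shared by all 8 arrays, including the wider PLX4032 pairs. With the 4 DMSO arrays alone, LRRC39 passed (adjusted p = 0.0142), and it also passed without either hairpin PLX4032 array (adjusted p = 0.00988). The arrays carried no detection calls, so how far these low levels stand above background is unknown.

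TRIM63, AMBN, KCNAB2 and SERPINF1 had PLX4032 rises of 1.85 to 2.24 on the log2 scale in scrambled cells. They were lower with the hairpin in both treatments, as were TRPM1, FRMD4B and PRDM7. TRIM63 (MuRF1), a ubiquitin ligase that marks muscle proteins for breakdown, had log2 levels of 6.20 and 5.91 in MITF-hairpin cells given PLX4032, 8.55 and 8.65 in scrambled cells given PLX4032, 4.92 and 4.68 in MITF-hairpin cells in DMSO, and 6.35 and 6.37 in scrambled cells in DMSO. The hairpin PLX4032 arrays lay just under the scrambled DMSO arrays, and no groups overlapped. In DMSO TRIM63 fell 2.95-fold on knockdown (-1.56 ± 0.11, adjusted p = 2.5e-06, limma). Under PLX4032 it was 5.83-fold lower with the hairpin. PLX4032 went with a 2.39-fold higher TRIM63 level in hairpin cells and a 4.72-fold higher level in scrambled cells, so the log2 rise in hairpin cells was 56.1% of that in scrambled cells, the highest share among the 9 genes.

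AMBN, which encodes the enamel matrix protein ameloblastin, had log2 levels of 4.11 and 4.18 in MITF-hairpin cells given PLX4032, 7.71 and 7.70 in scrambled cells given PLX4032, 3.65 and 3.65 in MITF-hairpin cells in DMSO, and 5.54 and 5.53 in scrambled cells in DMSO. Arrays A and B nearly coincided in every group, and the 4 groups were fully apart. AMBN fell 3.70-fold on knockdown in DMSO (-1.89 ± 0.077, adjusted p = 5.22e-08, limma). It was 11.8-fold lower with the hairpin under PLX4032, the largest such difference of the 9. The PLX4032 rise was 1.41-fold in hairpin cells and 4.49-fold in scrambled cells, a log2 share of 22.8%, and with both perturbations the AMBN difference from scrambled DMSO cells was -1.39 on the log2 scale.

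KCNAB2 is a cytoplasmic beta subunit of voltage-gated potassium channels. Its log2 level was 7.53 and 7.33 in MITF-hairpin cells given PLX4032, 10.49 and 10.28 in scrambled cells given PLX4032, 6.41 and 6.30 in MITF-hairpin cells in DMSO, and 8.24 and 8.24 in scrambled cells in DMSO. SERPINF1, the secreted serpin PEDF known as an inhibitor of angiogenesis, had log2 levels of 7.67 and 7.52 in MITF-hairpin cells given PLX4032, 10.61 and 10.47 in scrambled cells given PLX4032, 6.89 and 6.98 in MITF-hairpin cells in DMSO, and 8.59 and 8.80 in scrambled cells in DMSO. Both genes had the same order of groups, with no overlap: scrambled PLX4032, scrambled DMSO, hairpin PLX4032, hairpin DMSO. Knockdown in DMSO lowered KCNAB2 3.69-fold (-1.89 ± 0.10, adjusted p = 3.12e-07, limma) and SERPINF1 3.39-fold (-1.76 ± 0.10, adjusted p = 4.5e-07, limma). Under PLX4032 the hairpin level was 7.76-fold lower for KCNAB2 and 7.71-fold lower for SERPINF1. The log2 rise in hairpin cells was 50.2% of that in scrambled cells for KCNAB2 and 35.8% for SERPINF1.

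FRMD4B and PRDM7 had the smallest PLX4032 rises of the 9 in scrambled cells, 0.51 and 0.67 on the log2 scale. The word induced describes them poorly. FRMD4B, a FERM-domain scaffold that binds cytohesins, had log2 levels of 5.86 and 6.13 in MITF-hairpin cells given PLX4032, 9.52 and 9.44 in scrambled cells given PLX4032, 7.40 and 7.21 in MITF-hairpin cells in DMSO, and 8.89 and 9.04 in scrambled cells in DMSO. It was the 1 gene of the 9 whose PLX4032 difference had opposite signs: 2.48-fold lower in hairpin cells (-1.31 ± 0.11) and 1.43-fold higher in scrambled cells (0.51 ± 0.11). Its hairpin PLX4032 arrays were the lowest of all 8, with a mean difference of -2.97 from scrambled DMSO cells on the log2 scale. FRMD4B fell 3.16-fold on knockdown in DMSO (-1.66 ± 0.11, adjusted p = 1.35e-06, limma).

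PRDM7 encodes a PR-domain histone methyltransferase and has a near-identical relative, PRDM9, so its probes may read both. Its log2 level was 4.85 and 5.45 in MITF-hairpin cells given PLX4032, 8.14 and 7.93 in scrambled cells given PLX4032, 5.37 and 4.63 in MITF-hairpin cells in DMSO, and 7.31 and 7.41 in scrambled cells in DMSO. The 2 hairpin groups overlapped, with gaps between A and B of up to 0.74. PRDM7 fell 5.15-fold on knockdown in DMSO (-2.36 ± 0.22, adjusted p = 1.69e-05, limma), the largest fall of the 9 there. PLX4032 went with a 1.11-fold higher level in hairpin cells (0.15 ± 0.22) and a 1.59-fold higher level in scrambled cells (0.67 ± 0.22). The probe set named for PRDM9 stayed between 3.14 and 3.65 on all 8 arrays and passed no knockdown or PLX4032 test (adjusted p from 0.0886 to 0.816, limma).

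**Figure D2:**
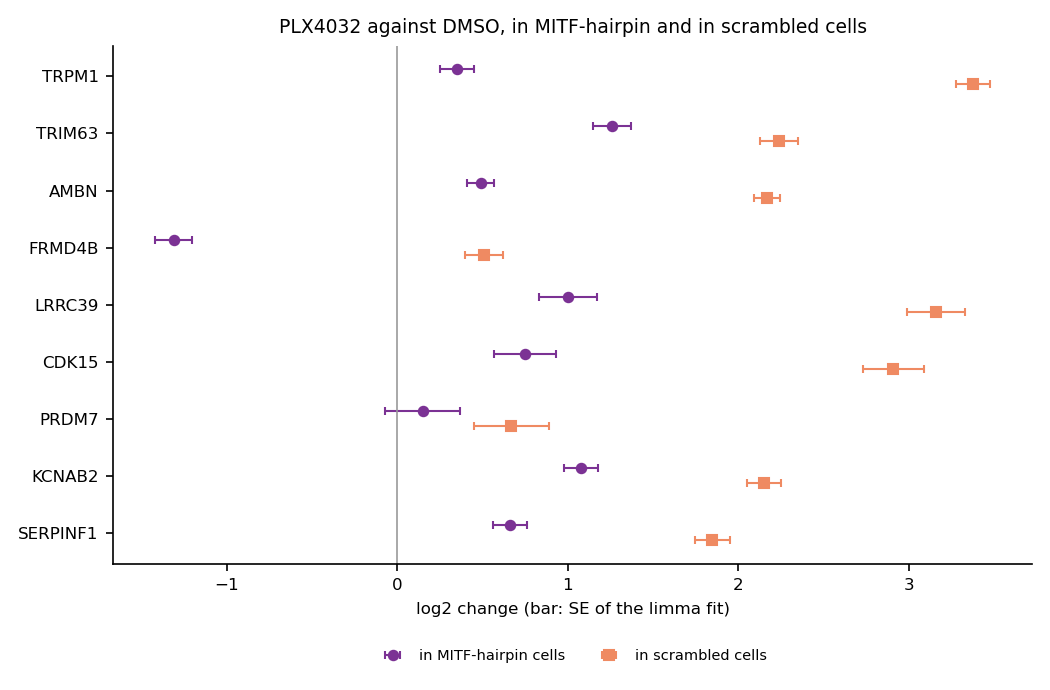
Log2 change with PLX4032 against DMSO (horizontal axis) for the 9 genes, in MITF-hairpin cells (circles) and in scrambled cells (squares); bars are the SE of the limma fit. For every gene the circle lies left of the square, from TRPM1 at 0.35 against 3.38 to FRMD4B at -1.31 against 0.51; the scrambled PLX4032 values were used to choose the genes.

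Over all 9 genes, knockdown in DMSO lowered 7 and raised 0, and LRRC39 and CDK15 did not pass. The median change was -1.7, against 0.02 over all genes. Of all 18404 genes, 18.8% were called lower and 14.4% higher in this comparison at an adjusted p under 0.05 (limma). Of all genes called, 43.4% were higher, and 28.6% after each array was shifted to a common median. When genes below the median level of all genes were left out, 3 of the 9 remained, FRMD4B, KCNAB2 and SERPINF1, and all 3 passed. Interferon response genes moved with the hairpin as well: 10 of 11 rose and 0 fell in either treatment. Their mean level per array ran from 9.32 to 9.50 in MITF-hairpin and from 6.98 to 7.64 in scrambled cells given PLX4032, and from 9.87 to 9.88 in MITF-hairpin and from 6.98 to 7.17 in scrambled cells in DMSO. Their part in the knockdown results of the 9 was not tested. Under PLX4032 the hairpin differences of the 9 ran from -3.56 in AMBN to -2.28 in CDK15. For that comparison 15.0% of all genes were called lower and 13.5% higher, and the share of calls that were higher was 47.3%, or 34.5% with arrays shifted to a common median. For PLX4032 in scrambled cells 17.3% of all genes were called higher and 16.8% lower. How the 9 stand in those 2 comparisons is fixed by the selection.

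**Figure D3:**
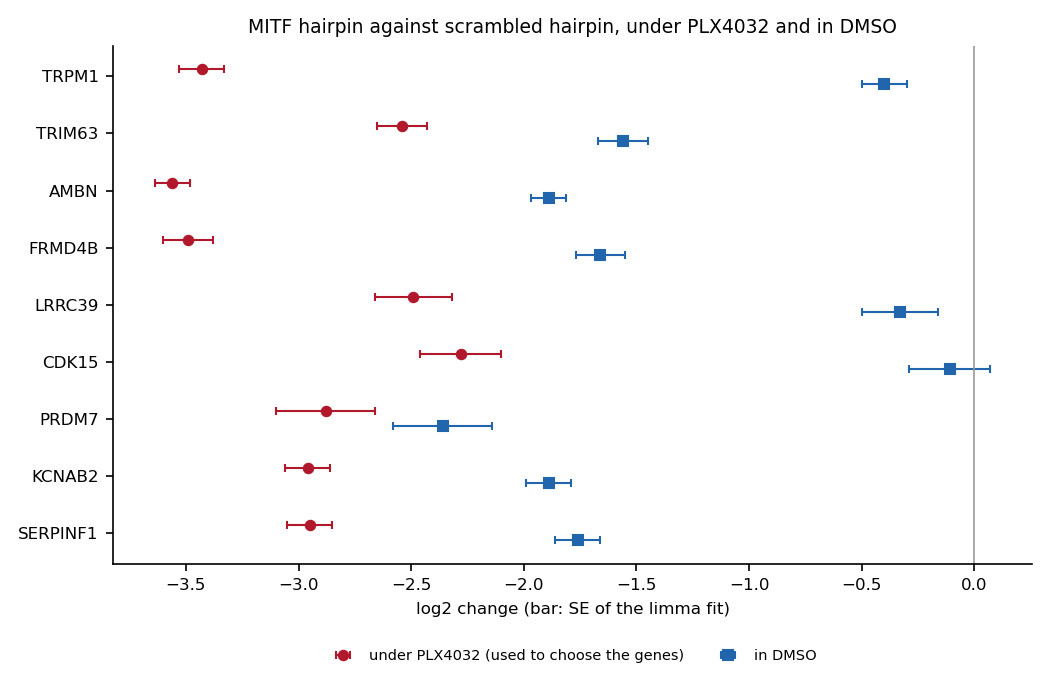
Log2 change between MITF-hairpin and scrambled cells (horizontal axis) for the 9 genes, under PLX4032 (circles, the values used to choose the genes) and in DMSO (squares); bars are the SE of the limma fit. The PLX4032 values span -3.56 to -2.28, and the DMSO values run from -2.36 in PRDM7 to -0.11 in CDK15, with TRPM1, LRRC39 and CDK15 nearest to 0.

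The knockdown difference under PLX4032 was larger than in DMSO for each of the 9. The log2 change under PLX4032 minus that in DMSO was -3.03 for TRPM1, -2.16 for CDK15, -2.15 for LRRC39, -1.82 for FRMD4B, -1.67 for AMBN, -1.18 for SERPINF1, -1.07 for KCNAB2, -0.98 for TRIM63 and -0.52 for PRDM7. These are descriptions, as they include the arrays of the selection. Of all genes, 4.85% had a lower and 6.97% a higher change under PLX4032 than in DMSO by the test of this difference (limma). Relative to scrambled DMSO cells, the combination of hairpin and PLX4032 left TRPM1 at -0.05, TRIM63 at -0.30 and KCNAB2 at -0.81 on the log2 scale. LRRC39 (0.67) and CDK15 (0.64) stayed above that baseline, and SERPINF1 (-1.10), PRDM7 (-2.21) and FRMD4B (-2.97) stayed under it.

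The selection had no numeric threshold, so the genes next to it were ranked by the smaller of their PLX4032 rise in scrambled cells and their hairpin fall under PLX4032. TRPM1 ranked 1 of 18404 by this measure, at 3.38. Ranks 2 and 3 were the non-members DIPK1C (2.72) and GMPR (2.59), with GMPR encoding guanosine monophosphate reductase, followed by LRRC39 at rank 4 (2.49). BCAN, the matrix proteoglycan brevican (2.47), HAS2, a hyaluronan synthase (2.47), and SLC17A6, a vesicular glutamate transporter (2.41), came at ranks 5, 6 and 7. CDK15 ranked 9, TRIM63 12, AMBN 14, KCNAB2 15, SERPINF1 21 (1.85), PRDM7 194 (0.67) and FRMD4B 304 (0.51). Both differences were at least 1 log2 unit in 86 genes, of which 7 are among the 9, so the 9 are a selection from a larger group.

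The 6 genes whose values over the 8 arrays most resembled those of TRPM1, among 3285 others with a range of at least 1 log2 unit, were ASB11 (Pearson r = 0.9967), CDH3 (0.9947), EPM2A (0.9943), NCKAP5 (0.9933), HAS2 (0.993) and GOLGA4-AS1 (0.992). These are descriptions over 8 arrays in 4 groups, in which the scrambled PLX4032 pair stands apart and alone can give a high r. ASB11, of a family of ubiquitin ligase adaptors, had 3.96 and 3.90 in MITF-hairpin cells given PLX4032, 4.95 and 4.82 in scrambled cells given PLX4032, 3.83 and 3.74 in hairpin cells in DMSO, and 3.95 and 3.89 in scrambled cells in DMSO. In it, as in TRPM1, the scrambled PLX4032 arrays were the high pair. CDH3 (P-cadherin) had 4.92 and 4.67 in MITF-hairpin cells given PLX4032, 6.48 and 6.60 in scrambled cells given PLX4032, 4.68 and 4.55 in hairpin cells in DMSO, and 4.65 and 4.73 in scrambled cells in DMSO. HAS2 had 6.54 and 6.59 in MITF-hairpin cells given PLX4032, 9.33 and 9.17 in scrambled cells given PLX4032, 6.28 and 6.16 in hairpin cells in DMSO, and 6.64 and 6.92 in scrambled cells in DMSO. The hairpin PLX4032 arrays of HAS2 lay under both scrambled DMSO arrays, and those of CDH3 overlapped with them. Among the other 8 members r with TRPM1 was 0.9713 for CDK15 (rank 26), 0.9644 for LRRC39 (rank 35), 0.9415 for TRIM63, 0.9296 for KCNAB2, 0.9258 for AMBN and 0.9196 for SERPINF1, and it was lower for PRDM7 (0.7406, rank 400) and FRMD4B (0.6527, rank 554).

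**Figure D4:**
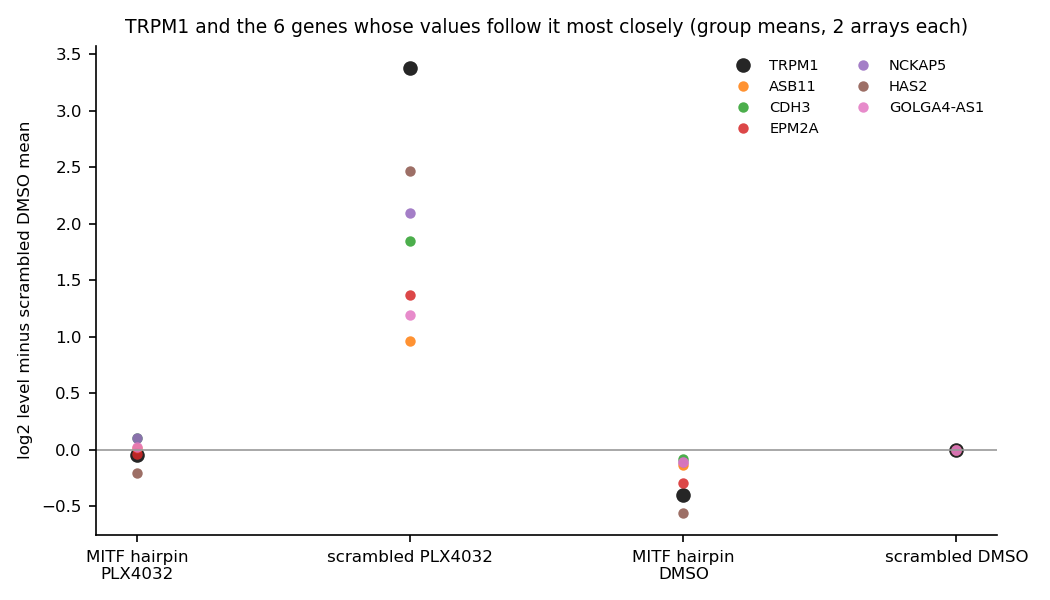
Group means of TRPM1 and of the 6 genes most like it, as log2 level minus the gene's own scrambled DMSO mean (vertical axis), in the 4 groups of 2 arrays each. TRPM1 stands at 3.38 in scrambled PLX4032 cells, above the 6 others, and all 7 genes lie near 0 or under it in the remaining groups.

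TRPM1 hosts MIR211, and the array had a probe set named for that microRNA gene. The 2 mature products are printed for identification, with seed bases 2 to 8 in capitals (RefSeq, GRCh38.p14), and they do not share a seed.
hsa-miR-211-5p (chr15:31065095-31065116, minus strand): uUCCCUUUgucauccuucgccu
hsa-miR-211-3p (chr15:31065059-31065079, minus strand): gCAGGGACagcaaaggggugc
Mature microRNA was not measured separately. The log2 level of the MIR211 probe set was 6.18 and 5.87 in MITF-hairpin cells given PLX4032, 6.30 and 6.30 in scrambled cells given PLX4032, 5.72 and 5.59 in MITF-hairpin cells in DMSO, and 5.47 and 5.21 in scrambled cells in DMSO. MIR211 rose 1.95-fold with PLX4032 in scrambled cells (0.96, adjusted p = 8.51e-05, limma). The hairpin changes of MIR211 did not pass, at -0.28 under PLX4032 (adjusted p = 0.11, limma) and 0.32 in DMSO (adjusted p = 0.0617, limma), while the changes of the host gene were -3.43 and -0.40 in those comparisons. Those MIR211 calls moved with the settings: under PLX4032 it passed without hairpin array A (-0.43, adjusted p = 0.0288), and in DMSO without scrambled array A (0.44, adjusted p = 0.0242).

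The genes beside TRPM1 on chromosome 15 also moved. MTMR10, a myotubularin-related phosphatase family member, had 8.82 and 8.89 in MITF-hairpin cells given PLX4032, 9.76 and 9.69 in scrambled cells given PLX4032, 7.67 and 7.60 in hairpin cells in DMSO, and 8.46 and 8.38 in scrambled cells in DMSO. MTMR10 fell 1.82-fold on knockdown under PLX4032 (adjusted p = 1.41e-05) and 1.72-fold in DMSO (adjusted p = 3.55e-05), and rose 2.47-fold with PLX4032 in scrambled cells (adjusted p = 7.04e-07, limma). KLF13, a zinc-finger transcription factor on the other side, rose 3.83-fold with PLX4032 in scrambled cells (adjusted p = 4.49e-07, limma). KLF13 fell 1.33-fold on knockdown under PLX4032 (adjusted p = 0.02, limma), a call lost without any 1 of the 4 arrays compared (adjusted p from 0.0543 to 0.124), and had a change of -0.14 in DMSO (adjusted p = 0.367, limma).

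Over the 17 genes nearest to the 9 by RefSeq gene order, 6 fell and 1 rose on knockdown under PLX4032, and 3 fell and 0 rose in DMSO. With PLX4032 in scrambled cells 3 rose and 3 fell. Across all 18404 genes, 15.0% fell and 13.5% rose on knockdown under PLX4032, and 18.8% fell and 14.4% rose in DMSO. With PLX4032 in scrambled cells 17.3% of all genes rose and 16.8% fell. Their median change was -0.18 on knockdown under PLX4032, -0.14 on knockdown in DMSO and 0.023 with PLX4032 in scrambled cells; over all genes it was 0.022, 0.02 and 0.051 in the same 3 comparisons. One of the 17 is MITF, the gene next to FRMD4B and the target of the hairpin, which counts among the falls in both treatments. LMOD3 beside FRMD4B and the neighbours of AMBN and LRRC39 did not pass any of the 3 tests. The falls under PLX4032, besides MITF, MTMR10 and KLF13, were TMEM237 beside CDK15 (-0.32), NPHP4 beside KCNAB2 (-0.32) and DRC4 beside PRDM7 (-0.47), all smaller than those of the 9. In DMSO the falls were MITF, MTMR10 and PDIK1L beside TRIM63 (-0.38, adjusted p = 0.00507, limma).

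Relatives of the 9 by sequence family moved in both directions. Of 22 relatives, 0 fell and 4 rose on knockdown under PLX4032, 2 fell and 5 rose in DMSO, and 6 rose and 3 fell with PLX4032 in scrambled cells. Across all 18404 genes, 15.0% fell and 13.5% rose on knockdown under PLX4032, and 18.8% fell and 14.4% rose in DMSO. With PLX4032 in scrambled cells 17.3% of all genes rose and 16.8% fell. Their median change was 0.012 on knockdown under PLX4032, 0.093 on knockdown in DMSO and 0.026 with PLX4032. Among TRPM channels, TRPM3 had 7.98 and 8.04 in MITF-hairpin cells given PLX4032, 6.52 and 6.44 in scrambled cells given PLX4032, 6.68 and 6.61 in hairpin cells in DMSO, and 5.44 and 5.44 in scrambled cells in DMSO. TRPM3, which hosts the microRNA miR-204, rose on knockdown by 1.53 under PLX4032 (adjusted p = 1.49e-07) and by 1.20 in DMSO (adjusted p = 1.4e-06, limma), where TRPM1 was lower. It rose with PLX4032 in scrambled cells by 1.04 (adjusted p = 3e-06, limma).

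TRPM8, the channel known as the cold and menthol sensor, had 7.93 and 7.83 in MITF-hairpin cells given PLX4032, 5.80 and 5.84 in scrambled cells given PLX4032, 8.34 and 8.29 in hairpin cells in DMSO, and 7.41 and 7.40 in scrambled cells in DMSO. TRPM8 rose with the hairpin 4.18-fold under PLX4032 (adjusted p = 1.61e-08) and 1.88-fold in DMSO (adjusted p = 9.79e-06, limma), and fell 3.0-fold with PLX4032 in scrambled cells (adjusted p = 1.48e-07, limma). Each of its changes was opposite in sign to that of TRPM1. TRPM7, a channel with a kinase domain, rose by 0.73 with PLX4032 in scrambled cells (adjusted p = 0.000134), and TRPM4 by 0.48 (adjusted p = 0.00284, limma). TRPM7 changed by -0.28 on knockdown in DMSO (adjusted p = 0.0449, limma). That call was lost with the replicate block (adjusted p = 0.0534) and with the 4 DMSO arrays alone (adjusted p = 0.0574). It held in 4 of 8 fits with 1 array left out, in which the change ran from -0.37 to -0.18. The channels TRPM2, TRPM5 and TRPM6 passed none of the 3 tests. Of the kinases closest to CDK15, CDK14 rose on knockdown by 0.80 under PLX4032 (adjusted p = 2.08e-05) and by 1.45 in DMSO (adjusted p = 3.62e-07, limma) and fell by 1.57 with PLX4032 in scrambled cells. CDK18 rose on knockdown by 0.46 under PLX4032 (adjusted p = 0.00247) and by 1.24 in DMSO (adjusted p = 2.12e-06, limma), and CDK16 passed none of the 3. FRMD4A fell by 1.14 with PLX4032 in scrambled cells, where the change of FRMD4B was 0.51. On knockdown in DMSO FRMD4A changed by -0.30 (adjusted p = 0.0424, limma). With 1 array left out the change was -0.38 to -0.23, and the call held in only 2 of 8 such fits. TRIM54, a muscle relative of TRIM63, rose by 0.44 on knockdown in DMSO (adjusted p = 0.00901) and by 0.50 with PLX4032 in scrambled cells (adjusted p = 0.00395, limma). The first call was lost without MITF-hairpin DMSO array B (adjusted p = 0.0571) or scrambled DMSO array A (0.0582). KCNAB1, a relative of KCNAB2, rose by 0.47 with PLX4032 in scrambled cells (adjusted p = 0.0014, limma). The other muscle relative TRIM55, the enamel genes ENAM, AMELX, AMTN and ODAM, KCNAB3 and SERPINF2 passed none of the 3 tests.

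**Figure D5:**
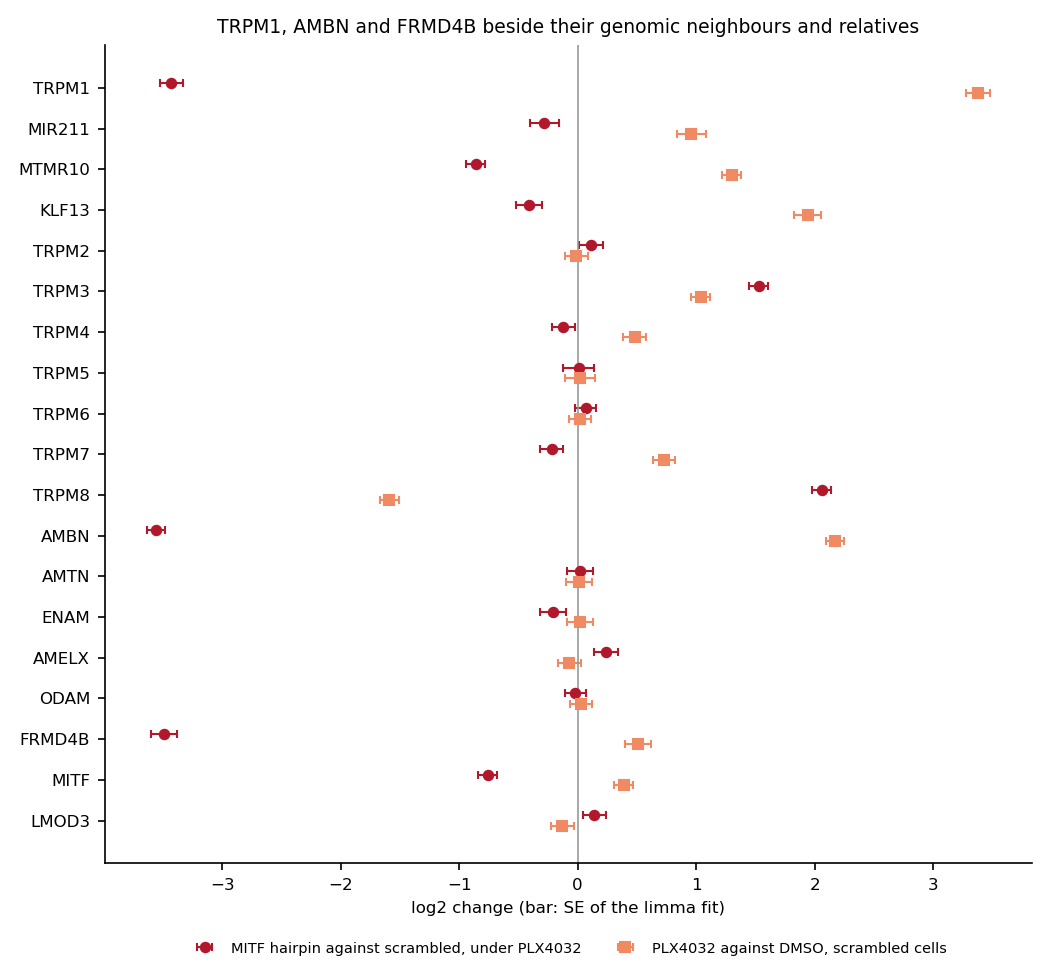
Log2 changes (horizontal axis) of TRPM1, AMBN and FRMD4B with their genomic neighbours and relatives, for MITF-hairpin against scrambled cells under PLX4032 (circles) and PLX4032 against DMSO in scrambled cells (squares); bars are the SE of the limma fit. TRPM1 (-3.43 and 3.38) and AMBN (-3.56 and 2.17) stand far to either side of 0, the enamel genes lie at 0 or near it, and TRPM8 (2.06 and -1.59) runs the opposite way.

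Known MITF targets outside the 9, from lists written with earlier results of these data known, were examined in the same 3 comparisons. Across all 18404 genes, 15.0% fell and 13.5% rose on knockdown under PLX4032, and 18.8% fell and 14.4% rose in DMSO. With PLX4032 in scrambled cells 17.3% of all genes rose and 16.8% fell. Of 9 pigment genes measured, 7 fell and 0 rose on knockdown under PLX4032, 5 fell and 1 rose in DMSO, and 7 rose and 0 fell with PLX4032 in scrambled cells. Their median change was -1.1 on knockdown under PLX4032, -0.80 on knockdown in DMSO and 0.82 with PLX4032. RAB27A, the GTPase of melanosome transport, had 6.68 and 7.24 in MITF-hairpin cells given PLX4032, 10.01 and 10.11 in scrambled cells given PLX4032, 6.96 and 6.78 in hairpin cells in DMSO, and 8.35 and 8.35 in scrambled cells in DMSO. On knockdown under PLX4032 the log2 changes were -3.10 for RAB27A (adjusted p = 8.07e-08), -2.76 for the melanosomal transporter SLC45A2 (1.57e-08), -2.70 for the melanosome protein MLANA (9.65e-09) and -1.40 for the melanosomal protein OCA2 (2.98e-07, limma). They were named for the largest called changes of their list in that comparison, so their passing it was fixed by the choice. SLC45A2 did not pass in DMSO (-0.28, adjusted p = 0.0687, limma).

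Of 22 other reported targets measured, 14 fell and 2 rose on knockdown under PLX4032, 13 fell and 1 rose in DMSO, and 13 rose and 5 fell with PLX4032 in scrambled cells. Their median change was -0.50 on knockdown under PLX4032, -0.44 on knockdown in DMSO and 0.46 with PLX4032. The receptor tyrosine kinase MET had 8.08 and 7.93 in MITF-hairpin cells given PLX4032, 11.48 and 11.29 in scrambled cells given PLX4032, 9.12 and 9.13 in hairpin cells in DMSO, and 10.01 and 10.04 in scrambled cells in DMSO. Like FRMD4B, MET was lowest in hairpin cells given PLX4032, where it was 10.4-fold under scrambled cells (adjusted p = 1.84e-09, limma). The mitochondrial coactivator PPARGC1A fell 6.52-fold (adjusted p = 3.68e-07) and the survival gene BCL2A1 3.76-fold (8.68e-08) on knockdown under PLX4032 (limma). MET, PPARGC1A and BCL2A1 were likewise named for the size of their called change in that comparison, so their passing it was fixed by the choice. GMPR, of the same list, was named above for its fall under PLX4032 and is tested in DMSO alone, where it fell 1.83-fold (adjusted p = 0.000127, limma). BCL2A1 did not pass in DMSO (-0.08, adjusted p = 0.569, limma). The scrambled PLX4032 arrays enter knockdown under PLX4032 and PLX4032 in scrambled cells with opposite signs, which favours opposite changes of a gene. The scrambled DMSO arrays enter knockdown in DMSO and PLX4032 in scrambled cells with the same sign, which favours changes of the same sign. The knockdown and PLX4032 changes of a gene are therefore not independent of each other.

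Few markers of the tissues in which several of the 9 are best known passed a test. Of 12 skeletal muscle markers, 1 fell and 0 rose on knockdown under PLX4032, 0 fell and 1 rose in DMSO, and 0 fell and 2 rose with PLX4032 in scrambled cells. Their mean level per array ran from 5.31 to 5.39 in MITF-hairpin and from 5.34 to 5.35 in scrambled cells given PLX4032, and from 5.34 to 5.41 in MITF-hairpin and from 5.17 to 5.29 in scrambled cells in DMSO. None of 6 enamel markers passed in any of the 3 comparisons. Their mean level per array was low, from 3.90 to 3.95 in MITF-hairpin and from 3.88 to 3.90 in scrambled cells given PLX4032. In DMSO it ran from 3.89 to 3.90 in MITF-hairpin and from 3.81 to 3.90 in scrambled cells. The lowest value of any gene was 2.57, so a change of these markers could be hidden near background. Of 6 melanocyte markers 3 fell and 1 rose on knockdown in either treatment, and 5 rose and 0 fell with PLX4032 in scrambled cells (median change 0.64). Their mean level per array ran from 10.33 to 10.33 in MITF-hairpin and from 10.92 to 11.12 in scrambled cells given PLX4032. In DMSO it ran from 9.25 to 9.28 in MITF-hairpin and from 9.96 to 10.0 in scrambled cells. Of 6 fibroblast markers 0 fell and 1 rose on knockdown under PLX4032 and 1 fell and 1 rose in DMSO. Of 5 leukocyte markers 1 rose and 0 fell on knockdown in either treatment. With PLX4032 in scrambled cells 1 fibroblast marker fell and 2 rose, and 0 leukocyte markers fell or rose. Across all 18404 genes, 15.0% fell and 13.5% rose on knockdown under PLX4032, and 18.8% fell and 14.4% rose in DMSO. With PLX4032 in scrambled cells 17.3% of all genes rose and 16.8% fell.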

How the data were processed

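Biotin-labelled RNA from 8 COLO829 samples was hybridised to 1 array each. The values deposited by the authors are log2 intensities per probe set. Per the submitters' processing notes they were made with RMA (background correction, quantile normalization and probe summary), whose version is not given. The genome build and annotation behind them were not given in the sources used here. The quantile step of RMA sets the probe intensities of all arrays to 1 distribution before the probe summary, which would remove a shift of most genes. Medians of the summarised values still differed between arrays. A shift to a common median moved the median change on knockdown in DMSO from 0.02 to -0.062. Of 32321 probe sets, 19158 had a single symbol in the platform annotation, 1388 had several and 11775 had none. Of these 19158, 19128 matched a RefSeq gene record by Entrez identifier and 0 symbols changed. The probe set with the highest mean stood for each of the 637 genes with several, which left 18404 genes with no filter on dim genes. The files held 0 columns of other samples.

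A mean per group was fitted over all 8 arrays with limma 3.58.1 in R 4.3.3 (lmFit and eBayes, 4 residual and 6.73 prior degrees of freedom). Tests were two-sided, adjusted by Benjamini-Hochberg over 18404 genes within a comparison, with a threshold of 0.05. Changes had a median SE of 0.0939, and 2 arrays per group limit the precision. The fit was tested on simulated data. Errors in the text are SEs of the fit.

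The 9 genes and all lists were chosen with earlier results of these data known. Genes named are the 9, MITF, MIR211, the 6 most like TRPM1 and the 5 nearest outside the selection. Called relatives, the highest of each family, those nearest measured neighbours that passed a test, and up to 4 targets per list are also named. The grouping of the 9 by the order of their levels, and the further relatives named as not passing, were chosen after the values were seen. Promoter and microRNA sequences are RefSeq's (GRCh38.p14).

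The letters A and B are shared by all groups. The deviations of same-lettered arrays from their group means correlated at -0.094 to 0.329 over the 6 pairs of groups, so the letters were not taken to pair samples. Alternatives were a replicate block, a variance trend, the 4 arrays of a comparison alone, a common array median, dim genes left out, the mean of all probe sets of a gene, a 1.5-fold minimum and each array left out in turn.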

Additional observations from a re-analysis of the deposited data

Results flagged for a closer look

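The knockdown change under PLX4032 minus that in DMSO was tested by the interaction term (limma, adjusted over 18404 genes) for part of the genes outside the 9. These were MIR211, the 22 relatives, the 17 neighbours with MITF among them, and the named targets except GMPR, and 11 passed. Some neighbours are also relatives. The genes most like TRPM1 and those nearest outside the selection were named on the same arrays, so they were left out of this count. Of all genes, 4.85% had a lower and 6.97% a higher value under PLX4032 by this test. SLC45A2 had a difference of -2.49 ± 0.15 (adjusted p = 3.84e-06), MET of -2.48 ± 0.13 (1.91e-06) and BCL2A1 of -1.84 ± 0.13 (1.09e-05). RAB27A (-1.61 ± 0.21, adjusted p = 0.000577), MLANA (-0.86 ± 0.14, 0.00171) and OCA2 (-0.47 ± 0.11, 0.0223) also had lower changes under PLX4032. The OCA2 call was lost without any 1 of 3 of the 8 arrays, MITF-hairpin DMSO array A (adjusted p = 0.101), MITF-hairpin PLX4032 array A (0.0566) or scrambled PLX4032 array A (0.0811). These targets were named for the size of their fall under PLX4032, which favours a negative difference. Over their whole lists the difference was lower for 6 and higher for 1 of 9 pigment genes (median -0.47), and lower for 7 and higher for 3 of 22 other reported targets (median 0.0041). PPARGC1A, named in the same way, had 0.11 ± 0.23 (adjusted p = 0.834). The rises of CDK14 (-0.65 ± 0.11, adjusted p = 0.00343) and CDK18 (-0.79 ± 0.12, 0.00191) were smaller under PLX4032. TRPM8 (1.15 ± 0.11, adjusted p = 7.78e-05) and FZD7, a Wnt receptor beside CDK15 (0.50 ± 0.13, 0.0328), had higher changes under PLX4032. The FZD7 call was lost without any 1 of 6 of the 8 arrays (adjusted p from 0.0604 to 0.15). MIR211 had -0.59 ± 0.17 (adjusted p = 0.0429), which was lost without any 1 of 6 of the 8 arrays (adjusted p from 0.0827 to 0.151).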

How the results depend on the processing

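CDK15 on knockdown in DMSO, which was not called, had 0.01 without scrambled DMSO array A in place of -0.11, and no other single-gene change that was recomputed turned its sign. Of 195 counts of calls recomputed, 186 stayed within 1.5 times the value given, and of 1152 single-gene values 1083 stayed on their side of the threshold, 59 lost a call and 10 gained one. The count of the 9 called in DMSO was 7, from 6 to 8 with 1 array left out, and 3 with dim genes left out, as that setting leaves out the other 6 genes. With a 1.5-fold minimum, calls among other reported targets were 10 (not 16) on knockdown under PLX4032 and 9 (not 18) with PLX4032 in scrambled cells. Under the same minimum, relatives had 4 (not 7) on knockdown in DMSO and 5 (not 9) with PLX4032, and neighbours 2 (not 7) on knockdown under PLX4032 and 3 (not 6) with PLX4032. Relatives on knockdown in DMSO had 4 to 8 calls with 1 array left out, 4 of them without MITF-hairpin DMSO array B. Neighbours on knockdown in DMSO had 7 calls (not 3) with arrays at a common median. In that setting the median change over all genes was -0.062, in place of 0.02. The cause of the added calls was not tested. Over all genes, calls on knockdown in DMSO were 6114, 3723 without MITF-hairpin DMSO array B and 1948 with the 1.5-fold minimum. That minimum left 1960 of 5243 calls on knockdown under PLX4032 and 2345 of 6278 with PLX4032 in scrambled cells. With the replicate block, calls over all genes were 5279, 6295 and 6146 for knockdown under PLX4032, PLX4032 in scrambled cells and knockdown in DMSO, and the count of the 9 in DMSO was still 7; MIR211 on knockdown in DMSO passed with the block (adjusted p = 0.0274, limma). No detection calls were used, so what signal over background limits is unknown.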
